A study of Mus musculus with 2 samples.

Results

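Small RNA reads from 6 tRNA families were examined in fetal mouse liver: the tRNAs for glycine, glutamate, aspartate, valine, lysine and histidine. They were taken as every repeat-annotated read sequence whose name in the deposited table gives a tRNA of one of these amino acids. This gave 6543 distinct read sequences out of 2344366 in the table, under 13 of its 59 tRNA names. They account for 457794 wild type reads and 367063 mutant reads. The names are those of the table's repeat annotation and end in a codon (Lys-AAA, Gly-GGY), where Y stands for C or T, and some, such as Glu-GAG_, carry a further mark.

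The study compared livers of strain B6/129 at E18.5, late in gestation, either wild type or Ago2ADH, which carries a catalytically inactive Argonaute 2. Argonaute 2 is the mammalian Argonaute that can cut an RNA paired to its small RNA guide. There was 1 library per genotype, made from gel-purified RNA of 19 to 30 nt and read on an Illumina GA2. The labels give neither the number of animals behind a library nor the zygosity, and the fetal liver also holds blood-forming cells.

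The wild type library holds 7599870 reads and that of Ago2ADH 7046197. Levels are given as reads per 1000000 of all reads (RPM), so 3 reads correspond to 0.395 RPM in wild type and 0.426 RPM in Ago2ADH. With no replicate, no p-value was computed, and a difference between libraries cannot be told apart from a difference between animals or preparations. Log2 ratios are of Ago2ADH over wild type, with a 95% interval from the exact binomial distribution, and the 95% interval of a share is the Clopper-Pearson one. Both cover counting error only, because there is 1 library per genotype. Molecules were not tagged, so PCR copies were counted as reads and the intervals may be too narrow even for that error. A feature whose reads in the 2 libraries summed to at least 100 was called higher or lower if its ratio was 2 or more, or 0.5 or less, with an interval that excluded 1, and "rose" and "fell" are kept for these. Pieces of liver marker mRNAs were abundant in both libraries: the 6 hepatocyte markers summed to 9996 RPM in wild type and 10739 in Ago2ADH. Singly they were mixed, with log2 ratios from -0.88 for Serpina1a to 0.32 for Trf. The 6 erythroid markers summed to 1780 and 1129 RPM, each of the 6 with a lower value in Ago2ADH, and 4 white blood cell markers to 46.4 and 47.7. The 4 endothelial and stromal markers summed to 18.2 and 13.6 RPM. Fewer cells of a type and less RNA per cell cannot be told apart here, and the part of the erythroid difference in the tRNA values was not tested.

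A tRNA is a short cloverleaf RNA whose ends pair to form the acceptor stem, with a D arm, an anticodon arm and a T arm between them. Enzymes add the bases CCA to its 3′ end after transcription, where the amino acid is then attached. Nucleases such as angiogenin cut tRNAs in the anticodon loop, and shorter pieces end in the D arm or begin in the T loop. Fragments of both kinds are abundant in many tissues, and some have been found bound to Argonaute proteins.

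Most of the reads began at the first base of the tRNA and ended near the anticodon. The sequences below are leading reads from that base for 8 of the tRNA names, each shown at a common length that is not always its longest. Most histidine reads begin further in. In the lysine pair the capitals mark the bases at which the reads of both names differ, and in the glycine pair likewise. In the other reads the capitals mark 3′ bases that some of the 4 leading reads from the first base lack.
Lys-AAA: gcccggAtagctcagtcggtagagcatCa
Lys-AAG: gcccggCtagctcagtcggtagagcatGa
Gly-GGY, commonest start: gcatGggtggttcagtggtagaattctcgc
Gly-GGY, other start: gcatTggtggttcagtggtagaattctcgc
Gly-GGA: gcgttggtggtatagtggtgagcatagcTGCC
Asp-GAY: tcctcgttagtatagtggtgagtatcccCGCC
Val-GTG: gtttccgtagtgtagtggttatcACGTTC
Val-GTA: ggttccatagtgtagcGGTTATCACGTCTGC
His-CAY_: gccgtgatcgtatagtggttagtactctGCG

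The other end of the molecule was seen in reads that end in the added CCA and match the genome nowhere. The sequences below are the 22-nt reads of this kind with most counts for each amino acid, and a 30-nt lysine read that moved the other way. The capitals mark the added CCA.
Gly-GGY 22 nt: tcgattcccggccaatgcaCCA
Glu-GAG_ 22 nt: tcgactcccggtgtgggaaCCA
Asp-GAY 22 nt: tcgattccccgacggggagCCA
Val-GTG 22 nt: tcgaaaccgggcggaaacaCCA
Lys-AAA 22 nt: tcaagtccctgttcgggcgCCA
His-CAY_ 22 nt: tcgaatccgagtcacggcaCCA
Lys-AAA 30 nt: tccagggttcaagtccctgttcgggcgCCA
Among these 22-nt reads, 5 begin with tcga and that of lysine with tcaa, which lie in the T loop.

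tRNA genes are multicopy, and this limits where a read can be placed. RefSeq lists 123 nuclear genes for these 6 amino acids in the mouse: 28 for glycine, 26 for lysine, 22 for valine, 20 for glutamate, 16 for aspartate and 11 for histidine. They lie on 17 chromosomes, and their genes are 71 to 74 nt long. Of the 6 amino acids' reads, 1.45% match the genome once, and the median read matches it 10 times. The values below therefore belong to a sequence or a name, not to a gene.

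In total, the 6 families made up 6.02% (6.01 to 6.04%) of all reads in wild type and 5.21% (5.19 to 5.23%) in Ago2ADH. The log2 ratio was -0.21 (-0.22 to -0.20), against 0.09 (0.08 to 0.10) for the sum of the other 46 tRNA names. Glutamate was the most abundant in both libraries and histidine the least. Glutamate gave 167443 and 123178 reads, or 22032 and 17482 RPM (log2 ratio -0.33). Glycine gave 16058 and 12781 RPM (-0.33), and valine gave 11156 and 9508 (-0.23). Lysine stood at 6954 and 9015 RPM, the only amino acid of the 6 with a positive ratio (0.37, 0.36 to 0.39). Aspartate stood at 3502 and 2878 RPM (-0.28) and histidine at 535 and 430 (-0.31). None of the 6 totals met the call.

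Among the tRNA names, the lysine pair parted. Lys-AAA stood at 2351 RPM in wild type (17866 reads) and 4601 in Ago2ADH (32419 reads). Its log2 ratio of 0.97 (0.94 to 0.995) corresponds to a ratio of 1.96, just under the limit of 2, and it passed 2 when scaled to all tRNA reads (log2 ratio 1.11) or to reads outside the miRNA class (1.04). Without its most abundant read the log2 ratio was 0.67. Lys-AAG stood at 4604 and 4414 RPM, with a log2 ratio of -0.06 (-0.08 to -0.04). In wild type, Lys-AAG was thus the more abundant lysine name, and in Ago2ADH the pair was nearly level. Of the 12 names with enough reads, 0 were called higher and 0 lower. Over all 54 tRNA names tested, 5.56% were called higher and 0% lower, so the count among the 12 says little.

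The other names had ratios below 0, of which Lys-AAG and Gly-GGA turned positive (0.0771 and 0.0098) when scaled to all tRNA reads. Glu-GAG_ stood at 21808 and 17309 RPM (-0.33). Gly-GGY stood at 12194 and 9274 (-0.40), and Gly-GGA at 3746 and 3429 (-0.13). The 3 valine names ranged from -0.18 for Val-GTG (8938 and 7880 RPM) to -0.45 for Val-GTA (1228 and 901), with Val-GTY at 990 and 728 (-0.44). The order of the leading names did not change between libraries, apart from Lys-AAA. The rare names were Glu-GAA with 1671 and 1203 reads (-0.36), Gly-GGG with 890 and 553 (-0.58), and Glu-GAG with 31 and 12, which was under the read minimum. For comparison, the 3 other tRNA names with most reads were Met-i (0.10), Leu-CTG (0.08) and Pro-CCY (-0.30).

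**Figure D1:**
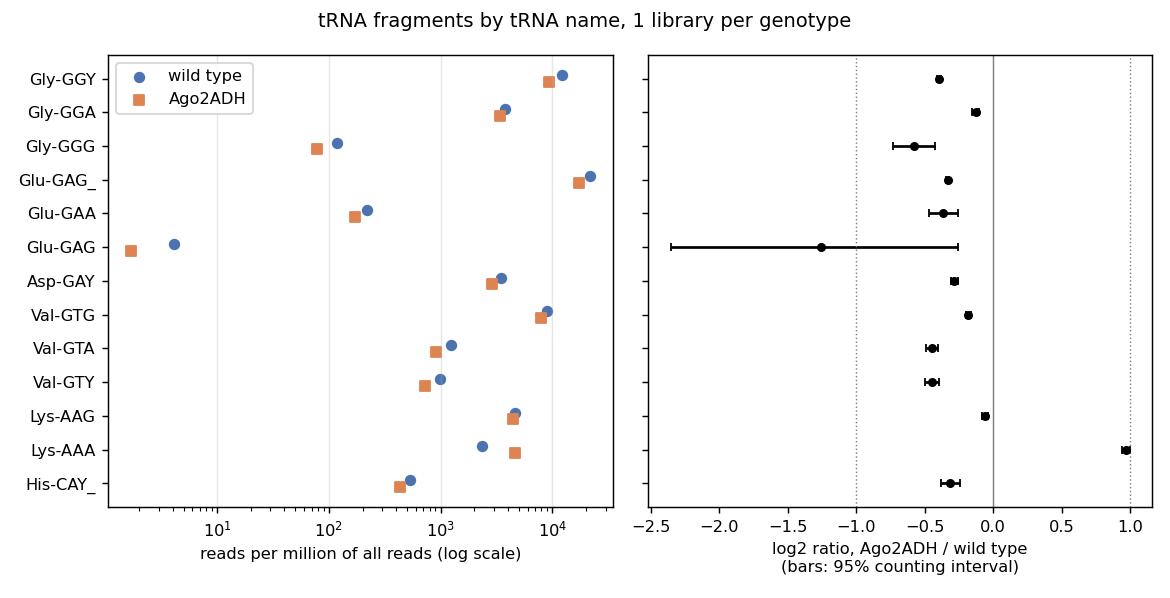
Level of each of the 13 tRNA names in RPM (left, log axis; circles wild type, squares Ago2ADH) and log2 ratio of Ago2ADH to wild type (right; bars are 95% counting intervals, dotted lines the limits of the call). Lys-AAA sits at 0.97, next to the upper limit, and the other 12 names lie below 0 on this scale, though not Lys-AAG and Gly-GGA when scaled to all tRNA reads.

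The distinct reads showed what the totals averaged out. Of the 6543 distinct reads, 584 reached the sum of 100 reads and could be called. Of these 584, 121 fell (20.7%) and 27 rose (4.62%); scaled to all tRNA reads, 92 fell and 37 rose. Over the whole table of 6956 reads tested, 11.3% fell and 7.39% rose, and among the 300 reads of other tRNA names 15% fell and 7.67% rose. The median log2 ratio was -0.39 over the 584, 0.04 over the whole table and -0.09 over the other tRNA names. Reads of 1 tRNA overlap and share their source, so these counts are not of independent features.

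The decreases lay mostly in glutamate and glycine and the increases mostly in lysine. For glutamate 58 of 154 reads fell and 0 rose, and for glycine 37 of 146 fell and 6 rose. For lysine 5 of 123 fell and 17 rose, and 16 of these 17 belong to Lys-AAA, which had 47 reads tested. Aspartate had 8 of 63 lower and 1 higher, valine 10 of 84 lower and 2 higher, and histidine 3 of 14 lower and 1 higher. By length, 107 of the 338 reads of 15 to 24 nt fell (31.7%) and 5 rose. Among reads of that length 11.7% fell and 5.83% rose over the whole table, and 19.5% fell and 6.19% rose in the other tRNA names. Of the 175 reads of 25 to 29 nt, 9 fell and 17 rose, where 10.9% of the whole table's reads of that length fell and 11.7% rose. Of the 71 longer ones 5 fell and 5 rose, where 5.87% fell and 14.7% rose over the whole table.

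Shorter reads made up a smaller share in Ago2ADH. The 15 to 24 nt class held 29.3% (29.2 to 29.4%) of the 6 families' reads in wild type and 25.1% (24.97 to 25.3%) in Ago2ADH. The 25 to 29 nt class held 42.7% (42.6 to 42.9%) and 47.2% (47.0 to 47.4%), and reads of 30 nt or more held 27.9% (27.8 to 28.1%) and 27.7% (27.5 to 27.8%). A smaller share of short reads was not particular to these families: the 15 to 24 nt class held 57.2% (56.9 to 57.5%) and 50.8% (50.5 to 51.1%) in the other tRNA names. It held 76.1% and 72.4% of all reads outside tRNA and miRNA. The gel fraction was 19 to 30 nt, so longer fragments were cut off to an unknown extent. Reads of 15 to 18 nt lie below it, so their levels are likewise uncertain. With reads of 19 to 30 nt alone, 67 distinct reads fell and 24 rose, in place of 121 and 27. The lowest ratios by length were those of reads of 17 nt (1271 and 686 RPM, -0.89) and 18 nt (1325 and 747, -0.83), both below the gel fraction. Reads of 29 nt stood at 7699 and 8185 RPM (0.09), and those of 30 nt at 7483 and 5848 (-0.36).

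Each family had its own profile. Glycine and glutamate were dominated by reads of 28 to 31 nt, whereas valine had its peak at 23 nt (3273 and 2980 RPM, -0.14). Aspartate had peaks at 16 nt (403 and 252 RPM, -0.68) and 32 nt. In histidine the short class held 50.8% (49.2 to 52.3%) of the reads in wild type and 43.3% (41.5 to 45.0%) in Ago2ADH. The short class was at a lower level in Ago2ADH in 5 of the 6 families, from -0.28 in valine to -0.90 in glutamate (4390 and 2356 RPM). In lysine it was at 2081 and 2483 RPM (0.25).

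**Figure D2:**
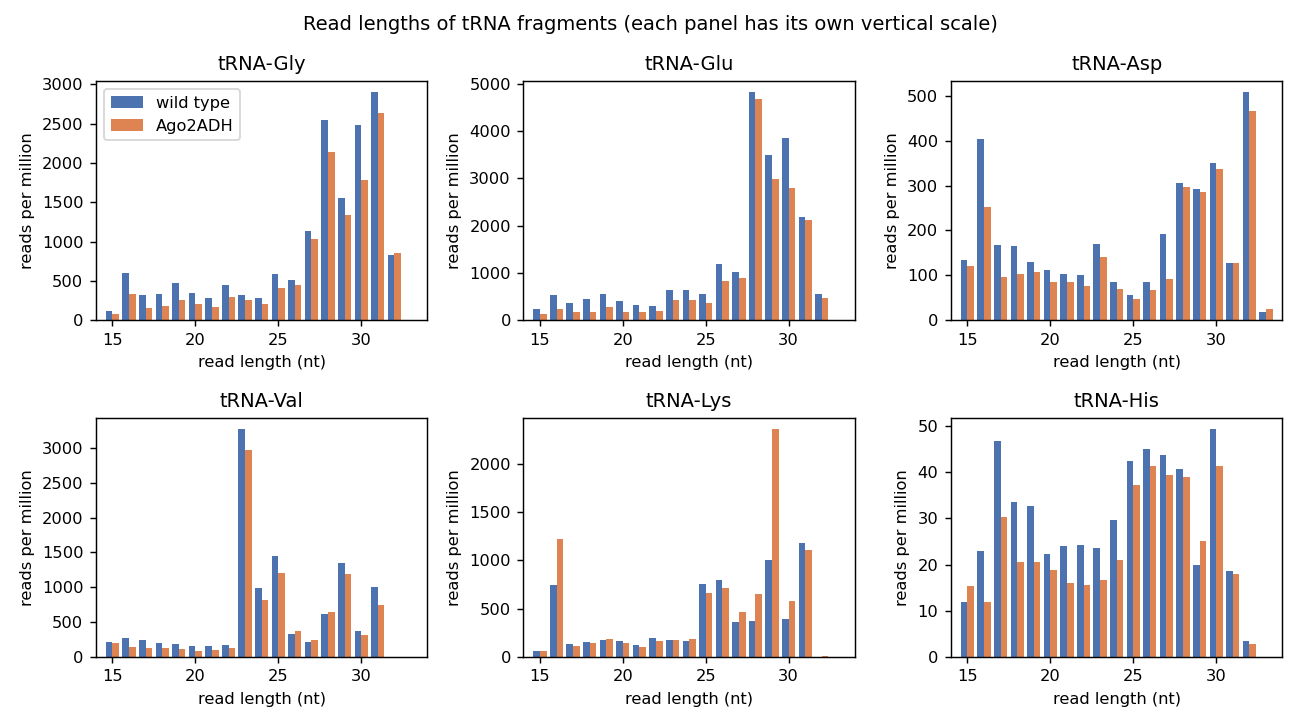
RPM (vertical axis, its own scale in each panel) against read length in nt for each of the 6 amino acids, wild type in blue and Ago2ADH in orange. Valine peaks at 23 nt, glutamate at 28 nt, and lysine at 29 nt in Ago2ADH, and short glutamate and glycine reads are at lower levels in Ago2ADH.

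The place in the tRNA was read from the sequences themselves. A read was taken to begin at the first base when its first 15 bases were those of the dominant start of its name, or a close variant of it. A read found within the sequence that the reads from the first base cover was called inside, and all others, which include the anticodon and T arms, elsewhere. Reads from the first base held 81.1% (81.0 to 81.2%) of the reads in wild type and 83.1% (82.9 to 83.2%) in Ago2ADH. Reads inside held 14.7% (14.6 to 14.8%) and 13.6% (13.5 to 13.7%), and reads elsewhere 4.16% (4.10 to 4.22%) and 3.33% (3.27 to 3.39%). In the other tRNA names the reads elsewhere were more common, with 16.3% (16.1 to 16.5%) and 18.8% (18.6 to 19.1%).

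Lysine reads from the first base carried most of the difference in Lys-AAA. The 29-nt read shown above rose 4.73-fold, from 2062 to 9036 reads (log2 ratio 2.24, 2.17 to 2.31). Its share of all Lys-AAA reads was 11.5% (11.1 to 12.02%) in wild type and 27.9% (27.4 to 28.4%) in Ago2ADH. The matching read of Lys-AAG, which differs from it at the 2 capital bases, had 4389 and 5625 reads (0.47, 0.41 to 0.52). The 16-nt read gcccggatagctcagt, which ends in the D loop, rose from 2332 to 5231 reads (1.27). Its counterparts in Lys-AAG, all reads of 16 nt from the first base together, numbered 2731 and 2727 (0.11).

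The ratio of the Lys-AAA reads also varied with their 3′ end. Reads from the first base that end at base 28, 29 or 30 rose (log2 ratios 1.81, 2.26 and 1.53), and so did those that end at base 16 (1.31). Over all tRNA names, 3.59% of such groups were called higher and 11.8% lower. Those that end at base 25 numbered 1820 and 1696 (0.01), and those that end at base 26 numbered 2739 and 2303 (-0.14). In Lys-AAG, reads that end at base 29 numbered 4743 and 6041 (0.46), and those that end at base 31 numbered 6608 and 4250 (-0.53). The second Lys-AAA sequence, whose reads begin gcctgg, moved with the first. Its 29-nt read gcctggatagctcagtcggtagagcatca rose from 107 to 568 reads (2.52), its 28-nt read rose from 21 to 118 (2.60) and its 16-nt read rose from 74 to 318 (2.21). These 3 and the 29-nt read of the commoner sequence are the 4 largest increases among the 584 reads.

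**Figure D3:**
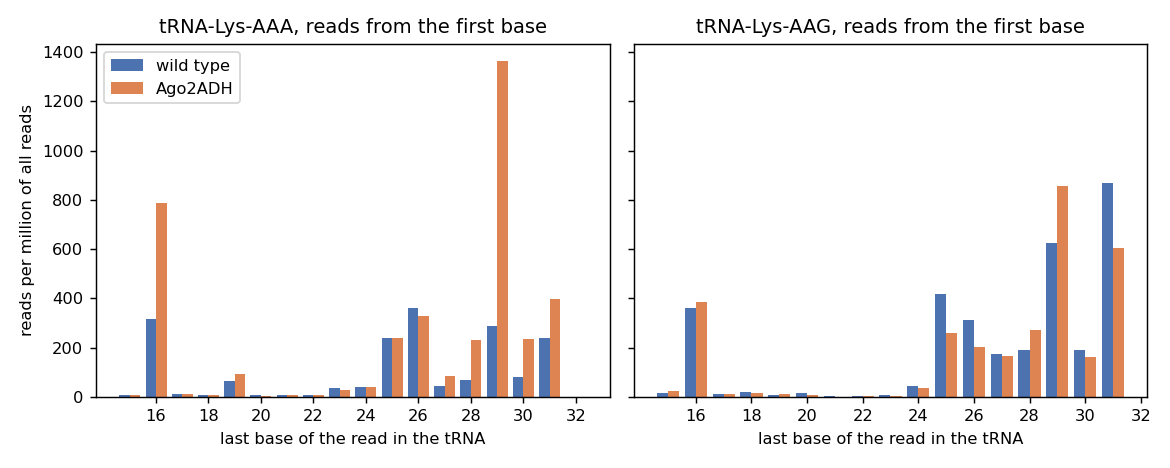
RPM that begin at the first base of Lys-AAA (left) and Lys-AAG (right), by the last base of the read, wild type in blue and Ago2ADH in orange on a shared vertical axis. In Lys-AAA the reads that end at bases 16 and 28 to 30 rose while those that end at bases 25 and 26 had log2 ratios of 0.01 and -0.14; in Lys-AAG no such rise is seen at base 16.

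In glutamate, short pieces of the 3′ side fell. Glutamate reads elsewhere in the tRNA fell from 8943 to 2948 (log2 ratio -1.49, -1.55 to -1.43). Nearly all of this difference was in the short ones. Those of 15 to 24 nt fell 3.40-fold, from 8109 to 2213 reads, the 1 group of 12 (6 families, short and longer reads) that met the call, and those of 25 nt or more numbered 834 and 735 (-0.07, -0.22 to 0.07). Of the 30 distinct glutamate reads elsewhere that could be called, 28 were of 15 to 24 nt. Among the 30, 27 fell and 0 rose, beside the 11.7% and 19.5% given above for short reads that fell in the whole table and in the other tRNA names. The group was singled out after its values were seen. One of them, tcgattcccggtcagg, starts with the same tcga as the CCA reads and had 371 and 55 reads (-2.64, -3.08 to -2.23). Another, gttcgattcccggtcagg, begins 2 bases earlier and had 319 and 81 (-1.87). In the other families the short reads elsewhere had ratios from -0.50 in valine and -0.44 in aspartate to 0.15 in lysine, and those of 25 nt or more from 0.01 in valine to 0.93 in lysine.

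5 of the 6 largest decreases were glutamate reads of 15 to 24 nt. The largest was tggtctagcggttaggattcctgg, a read inside Glu-GAG_ that covers the D arm, with 113 and 9 reads (-3.54, -4.71 to -2.57). Next came ttcgactcccggtgtgggaac with 142 and 17 (-2.95) and tcccggtatgggaac with 202 and 25 (-2.91), both from the 3′ side. The fifth, cgactcccggtgtggg, had 207 and 31 reads (-2.63). The one that was not glutamate was a 17-nt Lys-AAG read, ccccacgttgggcgcca, with 95 and 15 reads (-2.55). It matches the genome 70 times. The Lys-AAG read ttcgagccccacgttgggcgcca overlaps it, matches the genome once and rose from 35 to 133 (2.04). The remaining large increase was a 32-nt aspartate read across the variable and T arms, with 23 and 90 reads (2.08).

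Glycine had 2 common starts for Gly-GGY, which differ at 1 base. Reads that begin gcatGggtgg numbered 47810 and 32218 (-0.46, -0.48 to -0.44), and those that begin gcatTggtgg numbered 31932 and 24726 (-0.26, -0.28 to -0.24). The 30-nt reads shown above had 7465 and 4163 reads (-0.73) and 8433 and 5512 (-0.50). The 31-nt read of the first start had 14623 and 10915 (-0.31), and the 28-nt read 9773 and 6676 (-0.44). All of these leading glycine reads were at lower levels in Ago2ADH and none met the call. Of the 6 glycine reads that rose, 5 begin at base 4 and are 26 to 29 nt long, among them a 28-nt Gly-GGA read with 93 and 265 reads (1.62).

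The long aspartate reads had ratios near 0. The 32-nt read had 3284 and 2769 reads (-0.14), and those of 30, 29 and 28 nt had ratios of -0.09, -0.04 and -0.04. Among the valine names, Val-GTA had the lowest ratio in reads from the first base, with 8140 and 5181 reads (-0.54). Those that end at base 16 fell from 975 to 381 (-1.25), and those that end at base 29 numbered 3034 and 2605 (-0.11).

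Histidine was unlike the rest in its start. Only 16.02% (14.9 to 17.2%) of its reads began at the first base in wild type and 10.9% (9.83 to 12.1%) in Ago2ADH, against 67.3% or more in each of the other 5 families. The commonest start was base 4, with 930 and 1038 reads (0.27, 0.14 to 0.40), while the first base gave 651 and 331 (-0.87, -1.06 to -0.67). The leading read from base 4, gtgatcgtatagtggttagtactctgc, had 246 and 220 reads (-0.05), its 26-nt form 194 and 222 (0.30), and its 25-nt form 163 and 171 (0.18). The 30-nt read from the first base, gccgtgatcgtatagtggttagtactctgc, fell from 249 to 86 (-1.42, -1.80 to -1.07). Histidine tRNA is known for an extra guanosine that an enzyme adds before its first encoded base. Reads carrying it were not analysed here.

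For valine the whole gene could be followed. The RefSeq tRNA gene n-TVcac9, on chromosome 13 of GRCm38.p6 at chr13:23446142-23446214 on the minus strand, holds the Val-GTG sequence. The gene is 73 nt long and is shown whole, with the leading 23-nt read in capitals:
n-TVcac9: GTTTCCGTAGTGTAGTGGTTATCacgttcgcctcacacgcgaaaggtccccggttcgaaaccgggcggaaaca
Reads matching this sequence, alone or with CCA added, numbered 75089 in wild type and 61866 in Ago2ADH (-0.17). Other gene copies with the same sequence give the same reads. Reads from the first base made up 78.3% (78.0 to 78.6%) and 78.7% (78.4 to 79.0%) of them. Reads that end in the added CCA made up 11.1% (10.9 to 11.4%) and 11.9% (11.7 to 12.2%).

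The leading valine read had 23196 reads in wild type and 19894 in Ago2ADH (-0.11, -0.14 to -0.09), which is 34.1% (33.8 to 34.5%) and 35.8% (35.4 to 36.2%) of the Val-GTG reads. It ends in the D arm. Its longer forms of 24, 25 and 29 nt had 6335 and 5015 reads (-0.23), 9098 and 7305 (-0.21), and 5479 and 4378 (-0.21). Depth along the gene stood at 8147 and 7277 RPM at base 23, and at 57.5 and 52.4 at base 34, in the anticodon loop. It came back to 1095 and 1042 RPM at base 75, inside the CCA. The lowest ratios lay between these, near the T loop, where depth was 94.3 and 52.5 RPM at base 57 (-0.85, -1.03 to -0.66).

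**Figure D4:**
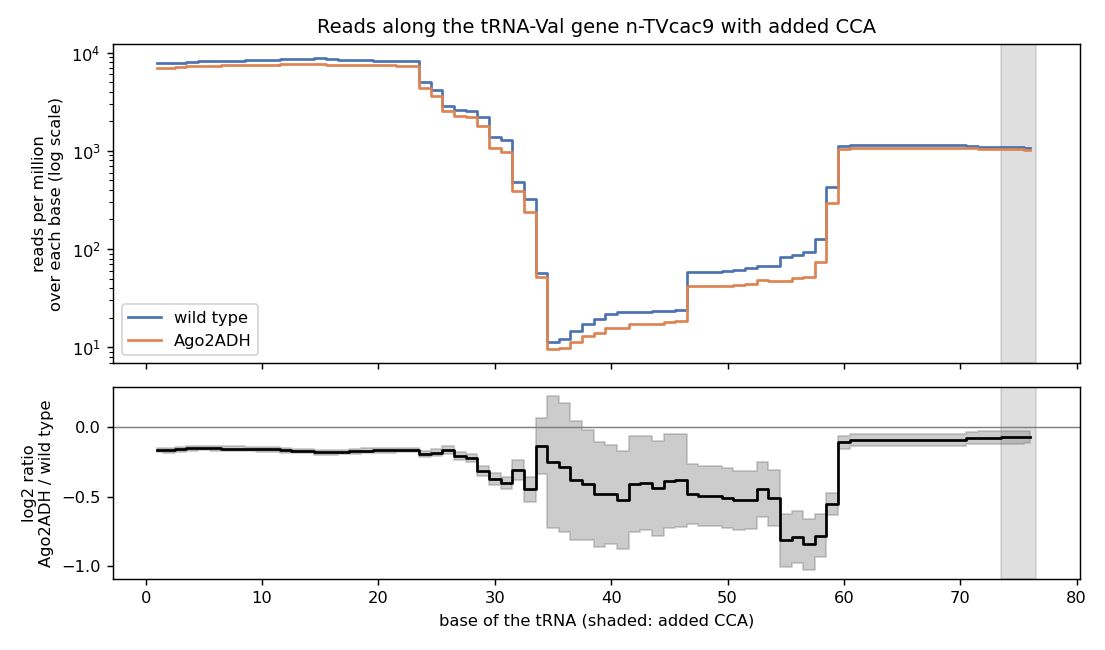
RPM over each base of the valine tRNA gene n-TVcac9 with the added CCA shaded (top, log axis; wild type blue, Ago2ADH orange) and their log2 ratio (bottom; grey band is the 95% counting interval). Depth is high up to base 23, low past base 34 and intermediate over the 3′ end, and the ratio is lowest at base 57 (-0.85).

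Reads that end in the added CCA were counted apart, by family and length. They stand outside the tRNA names of the table. Reads ending in cca that carry a tRNA name, such as the Lys-AAG reads ccccacgttgggcgcca and ttcgagccccacgttgggcgcca, are not in these counts. A read was assigned to an amino acid when the sequence before its CCA was the end of member reads, a step chosen after values of these data were seen. Reads with 1 base changed, described further below, were counted only where they met this match. Many were thus left out of the CCA counts, such as the 22-nt glycine form with A4T (488 and 158 reads). In this way 193 distinct reads were assigned to the 6 amino acids, and they had 19318 and 13688 reads (-0.39). Reads of 22 nt fell from 787 to 284 RPM (5983 and 1999 reads, -1.47, -1.55 to -1.40). Those of all other lengths numbered 13335 and 11689 (-0.08, -0.12 to -0.05), and those of 17 to 18 nt numbered 8121 and 7008 (-0.10). Valine supplied 8079 of the 13335 wild type reads of other lengths, and its log2 ratio there was -0.04. The other families ranged widely at these lengths, with -0.24 in aspartate, -0.26 in glycine, -0.80 in glutamate, -0.94 in histidine and 0.96 in lysine. Of the 8121 wild type reads of 17 to 18 nt, valine supplied 7250 (-0.04). Aspartate (-0.74), glutamate (-0.87) and histidine (-0.89, under the read minimum) stood lower there, and glycine and lysine had almost no reads.

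The 22-nt class was at a lower level in Ago2ADH in each of the 6 families. Aspartate supplied most of it, and fell from 4091 to 1390 reads (-1.45, -1.54 to -1.36), nearly all of them the sequence shown above (4034 and 1374). Glycine fell from 803 to 219 (-1.77), valine from 242 to 60 (-1.90) and glutamate from 691 to 271 (-1.24). Lysine had 82 and 42 (-0.86, -1.43 to -0.30), which did not meet the call. Histidine had 74 and 17, under the read minimum. Of the 5 amino acids with enough reads, 4 were called lower. Over all 13 amino acids with enough reads 84.6% were called lower, so the count among these families is near that background. The glutamate call was lost when scaled to glutamate CCA reads of other lengths (-0.44) and without its most abundant read (-0.91), settings chosen after seeing the data.

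Calls were also made at single lengths other than 22 nt. Of the 25 such groups of the 6 families with enough reads, 4 fell and 2 rose, where 9.62% of all amino acids' groups fell and 5.77% rose. Glutamate fell at 16 nt (311 and 117 reads, -1.30), 17 nt (286 and 124, -1.10) and 20 nt (100 and 39, -1.25). Aspartate fell at 17 nt (225 and 98, -1.09). Lysine rose at 23 nt (49 and 141, 1.63) and at 30 nt (509 and 985, 1.06).

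Because their CCA end and their length were fixed, the 22-nt reads all begin at the same place counted from the 3′ end, in the T loop. A shared start thus follows largely from that choice. In wild type 97.0% (96.6 to 97.4%) of them began tcga and in Ago2ADH 96.3% (95.4 to 97.1%). The glycine form with A4T (488 and 158 reads), which begins tcgt, is not among the reads counted here. In valine the commonest CCA reads were shorter and had other ratios: the 17-nt read accgggcggaaacaCCA had 5010 and 5053 reads (0.12, 0.06 to 0.18), and the 18-nt read aaccgggcggaaacaCCA had 2237 and 1496 (-0.47). This contrast was not seen in glutamate, where the reads of 16, 17 and 20 nt (-1.30, -1.10 and -1.25) stood near those of 22 nt (-1.24). The 26-nt aspartate read gggttcgattccccgacggggagCCA had 318 and 305 (0.05, -0.18 to 0.28), so 4 more bases at the 5′ end went with a different ratio.

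**Figure D5:**
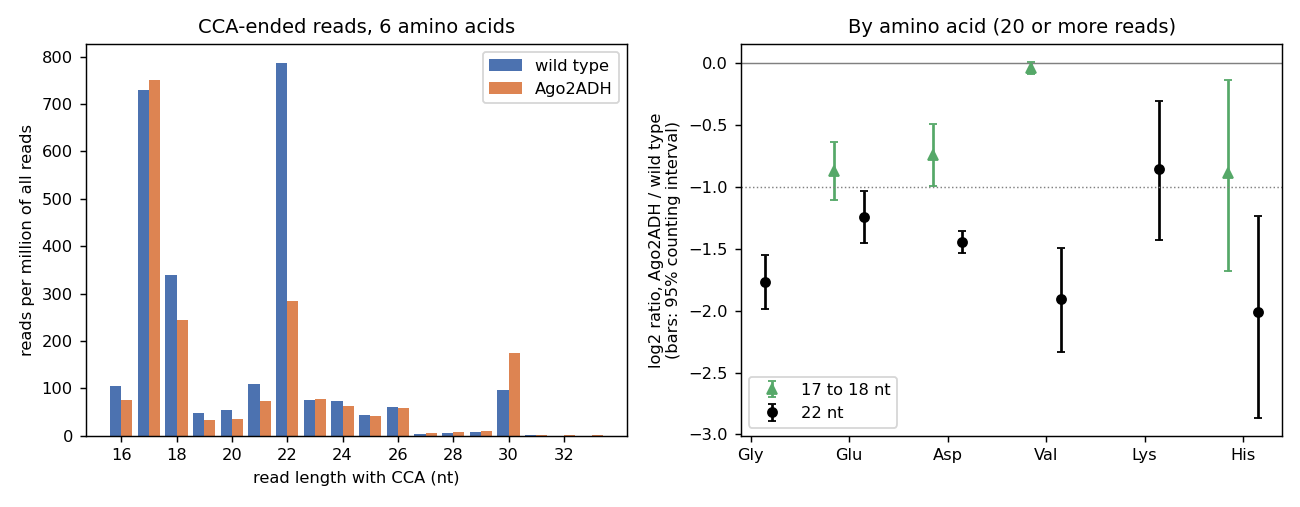
CCA-ended reads of the 6 amino acids: RPM by read length (left, wild type blue, Ago2ADH orange) and log2 ratio of Ago2ADH to wild type by amino acid (right; black circles 22 nt, green triangles 17 to 18 nt, bars 95% counting intervals, dotted line the limit of the call, only points with 20 or more reads). The 22-nt bar drops from 787 to 284 RPM, and the 22-nt ratios lie at -0.86 or below in each family.

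Lysine CCA reads were at a higher level at their long end, but a positive ratio at 30 nt was not particular to lysine. The 30-nt CCA reads of the other tRNA names together numbered 2675 and 3297 (0.41). Over the 9 amino acids with enough reads at 30 nt, 22.2% were called higher and 0% lower. The 30-nt read of Lys-AAA shown above, which runs from just before the T stem to the CCA, rose from 485 to 945 reads (1.07, 0.91 to 1.23). A 23-nt read, ttcaagtccctgttcgggcgCCA, rose from 48 to 140 (1.65), while the 22-nt read 1 base shorter had 80 and 42. Lys-AAA was thus at a higher level in Ago2ADH in long reads from either end.

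CCA reads also turned up with 1 base changed. In the leading lysine, glycine, valine and histidine reads most changed reads had the change at the same place, the T-loop adenosine that is methylated in many tRNAs. Positions are counted from 1 at the read's 5′ end, and the place is 19 bases from the 3′ end of the CCA. For the 30-nt lysine read, the form with A12G had 497 and 1539 reads (1.74) and the form with A12T had 310 and 836 (1.54). Together with a small number with A12C, changed reads were 62.8% (60.1 to 65.4%) of all reads of this sequence in wild type and 71.8% (70.3 to 73.4%) in Ago2ADH. In the 22-nt glycine read the same place is position 4: the form with A4T had 488 and 158 reads (-1.52), beside 586 and 129 for the unchanged read (-2.07). In the 22-nt aspartate read a change there was rare, with 2.68% (2.21 to 3.22%) and 3.98% (3.03 to 5.13%) of reads, and made up 111 of 548 and 57 of 158 changed reads. For the 22-nt glutamate read the leading difference was G13A, 10 bases from the 3′ end, with 235 of 271 and 83 of 88 such reads. That form, tcgactcccggtatgggaaCCA, was also assigned to glutamate as a CCA read of its own. Its stretch tcccggtatgggaac matches the genome 2 times, so G13A is not shown to be a changed base. The changed reads thus shared the direction of the unchanged ones, in lysine and in glycine.

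Pieces of mRNAs for proteins that act in the making, charging, modification and cutting of tRNAs, and for the Argonautes, were also counted. Of a list of 40 genes, 36 were found and 7 had 100 or more reads. Of the 7, 0 were lower and 0 higher, where 0.511% and 0.391% of 3329 genes tested were called lower and higher. The median log2 ratio was 0.09 over the 7 and 0.00 over the 3329. The 4 with most reads were Alkbh1, a demethylase that acts on tRNA (261 and 293 reads, 0.28), Eif2c2, the gene of Argonaute 2 (229 and 318, 0.58, 0.33 to 0.83), Eprs, which charges glutamate and proline tRNAs (137 and 123, -0.05), and Dicer1, which cuts double-stranded RNA (98 and 94, 0.05). Ang, the gene of angiogenin, had 6 and 1 reads, too few for a comparison. These are short pieces of mRNA and measure neither full transcripts nor protein, and Ago2ADH alters the catalytic site of the protein, so the count of Eif2c2 pieces does not check the genotype.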

How the data were processed

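Small RNA of 2 fetal liver libraries was analysed. Per the file headers, the deposited table gives raw counts for each distinct sequence in either library, beside its genome matches, annotation class and name. Aligner, genome build, annotation version and trimming: not given in the sources used here. Columns of other samples numbered 0. Genotypes come from the labels.

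Counts of members were summed by name, distinct read, length and position in the tRNA, and scaled to all reads (7599870 and 7046197). Starts were grouped by their first 15 bases, since no genome was used here. CCA reads needed 13 or more bases before the CCA. Gene numbers and the valine gene come from RefSeq (GRCm38.p6). Names given are every tRNA name, the 4 leading reads per amino acid (those of glutamate are not reported here), up to 6 largest changes in each direction, 3 other tRNA names and the 4 leading list genes; other reads were named after their values were seen. Members, lists and marker genes were chosen with earlier results of these data known. The size rule was tested on simulated data. Alternatives were other scalings, lengths, minimums, fold limits, distinct sequences, reads of 1 genome match and leaving out the most abundant read. Python 3.11.15, pandas 2.3.3, numpy 2.4.6, scipy 1.17.1 and matplotlib 3.10.9 were used.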

Additional observations from a re-analysis of the deposited data

How the results depend on the processing

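No paired analysis was possible because there is 1 library per genotype, and no replicate could be left out. Depth limits the histidine and rare-name values most. Scaling to all tRNA reads shifts every log2 ratio by 0.14, to reads outside the miRNA class by 0.07, to RefSeq reads by 0.09 and to miRNA reads by -0.11. The causes of the differences below were not tested, beyond fewer features or another scale where the setting itself brings them.

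Counting distinct sequences in place of reads gave small positive log2 ratios for aspartate (0.0263), histidine (0.0225), valine (0.0118) and the 6 together (0.0325). It did so for Asp-GAY (0.0263), Glu-GAG_ (0.0027), Gly-GGY (0.0056), His-CAY_ (0.0225), Lys-AAG (0.16), Val-GTA (0.0827) and Val-GTY (0.0308). Lys-AAG was also positive when scaled to all tRNA reads (0.0771), to reads outside the miRNA class (0.0085), with reads of 19 to 30 nt (0.0290) and with reads of 1 genome match (0.48, chosen after seeing the data). Scaled to all tRNA reads, Gly-GGA stood at 0.0098 and the 23-nt valine read at 0.0252. The aspartate reads of 32, 30, 29 and 28 nt stood at 0.00065, 0.0498, 0.10 and 0.10, and the 27-nt histidine read at 0.0856. Scaled to reads outside the miRNA class, the aspartate reads of 29 and 28 nt stood at 0.0316 and 0.0338, and the histidine read at 0.0170.

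Names called higher numbered 1, Lys-AAA, when scaled to all tRNA reads or to reads outside the miRNA class, with reads of 19 to 30 nt, with reads of 1 genome match or at a limit of 1.5-fold, and 1 name, Glu-GAG, was lower at a minimum of 20 reads. Distinct reads that fell numbered 67 with reads of 19 to 30 nt, 331 and 14 at minimums of 20 and 500 reads, 226 and 42 at limits of 1.5-fold and 3-fold, and 0 with reads of 1 genome match. Those that rose numbered 93 and 5, 64 and 14, and 1 (the 23-nt Lys-AAG read) in the same order of settings from the minimums on.

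The share change of reads of 15 to 24 nt was -4.51 percentage points without the most abundant read and -3.24 with reads of 1 genome match. For 25 to 29 nt it was 2.33 over distinct sequences, 3.44 without that read and 3.44 with 1 genome match, and for 30 nt or more it was 2.02 and 1.07 under the first 2 of these. That of reads from the first base was 0.747 over distinct sequences and 0.652 with reads of 19 to 30 nt. The 22-nt glutamate CCA reads lost their call against CCA reads of other lengths of glutamate (-0.44) and without their most abundant read (-0.91), and those of lysine gained one against other lengths (-1.82). These 3 settings were chosen after seeing the data.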
